A study of Homo sapiens with 3 samples.

Results

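The occupancy of imprinted genes by EP300, a histone acetyltransferase and transcriptional coactivator found at active promoters and enhancers, was described from chromatin immunoprecipitation and sequencing (ChIP-seq) of human embryonic stem cells. The 32 imprinted genes were listed by name, and their peaks were those that the authors' annotation assigned to one of these names. The tables name 29697 genes in all, and the list holds 28 protein-coding genes and the 4 long non-coding RNA genes H19, KCNQ1OT1, MEG3 and MEG8. The cells were H9, an established line, of wild-type (WT) genotype, and all samples were naive cells grown with PD0325901, XAV939, Go¨ 6983 and LIF (together called PXGL) on mouse embryonic fibroblasts. The series holds 2 samples with an EP300 antibody and 1 input sample without antibody, which has no peak table here. Nothing in the labels places the 2 EP300 samples in separate cultures, so differences between them may be technical. The series' title concerns O-GlcNAcase and pluripotency states, and the samples hold no second condition.

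Imprinted genes are expressed mainly from the allele of one parent. At many of them a germline imprint, a stretch of DNA methylated in the egg or in the sperm, sits on a promoter or on a control region, and the zinc finger protein ZFP57 is known to bind the methylated copy through the motif TGCCGC and to keep its methylation in the early embryo. Human naive cells in culture are known to lose methylation at many imprints. The peak tables hold no allele, methylation or expression values, so a peak at these genes cannot be placed on the maternal or the paternal copy.

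EP300 was found at most of the imprinted genes. A reproducible region is a group of overlapping peaks from both replicates, and 25 of the 32 genes had at least 1. At 24 of them a region lay at a promoter, within 3 kb of a start site in the authors' annotation, and NDN had only a distal region. Of the coding members, 22 of 28 (78.6%) had a promoter region, against 68.7% of all 19974 coding genes, and 23 of 28 (82.1%) had any region, against 72.1%. When regions were placed by the RefSeq 5′ end, whichever gene they were assigned to, 23 of 28 coding members (82.1%) had one within 3 kb, against 75.6% of 18867 coding genes. Of the 4 non-coding members, KCNQ1OT1 and MEG3 had a promoter region, whereas 6.65% of all lncRNA genes had one and 10.2% had any region.

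The median strength of the members' strongest regions was close to that of coding genes in general. Strength is the fold enrichment over input at a summit, as the authors' peak caller gave it, and it was ranked only within each list. The percentile of a region is the share of peaks in a list with that fold enrichment or less, and the lower of the 2 replicates was kept. Where 2 fold enrichments are given for a site, they are those of replicate 1 and of replicate 2. The strongest region of each member had a median percentile of 80.0 (n = 25), against 80.5 for coding genes with a region (n = 14411). Members with a region had a median of 2 regions and coding genes 1, so the strongest was taken from more regions at members. Over all their regions the members had a median percentile of 51.1 (n = 72), against 56.5 for all regions (n = 46263). PLAGL1 and MEST lay at or above the upper quartile of coding genes, a percentile of 90.5, and 7 members lay below the lower quartile of 65.0. Member promoter regions had a median percentile of 68.2 (n = 40), against 69.3 for all promoter regions (n = 25269), and their other regions 31.3 (n = 32), against 42.0 (n = 20994). Of the 32 other regions, 15 belonged to KCNQ1 or KCNQ1OT1, with a median of 25.6, and the remaining 17 had a median of 38.2.

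**Figure D1:**
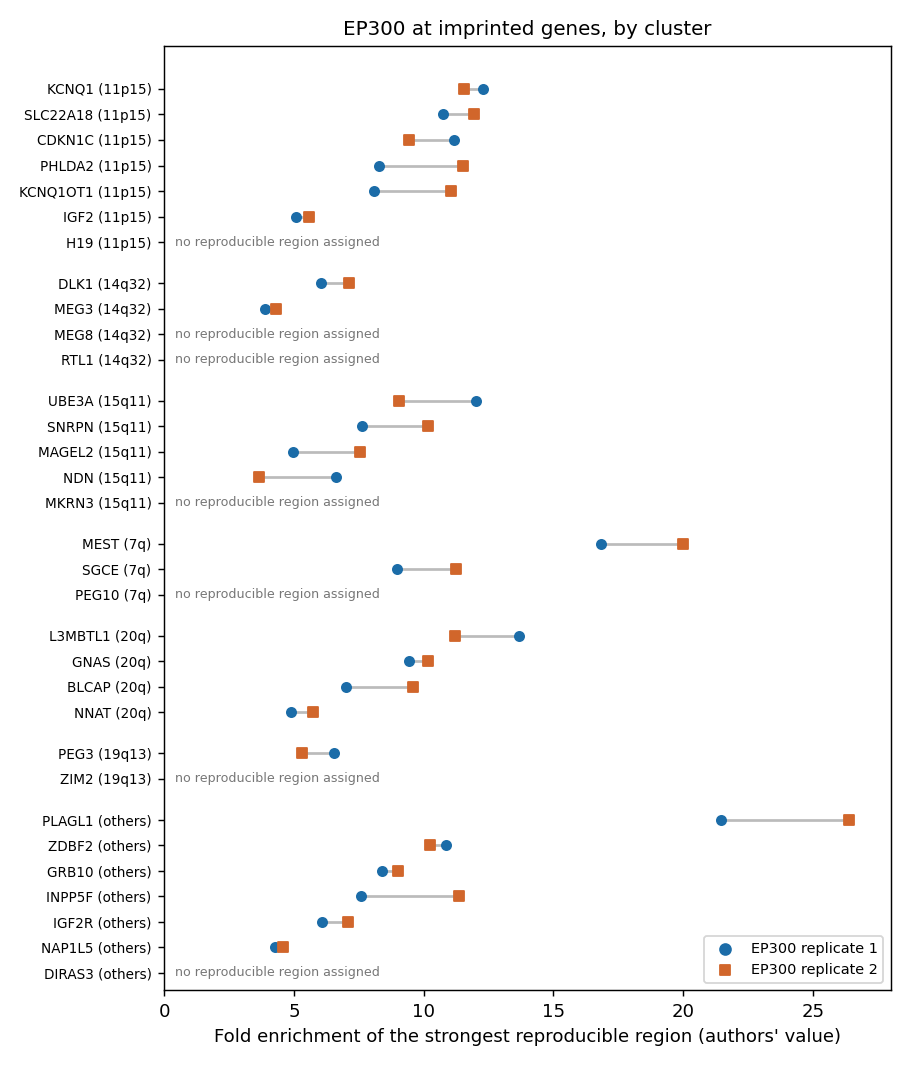
Fold enrichment over input (authors' value, x axis) of the strongest reproducible EP300 region of each imprinted gene, by cluster, with circles for replicate 1 and squares for replicate 2. PLAGL1 at 21.5 and 26.4 and MEST at 16.8 and 20.001 lie to the right of the others, and 7 genes have no region.

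**Figure D2:**
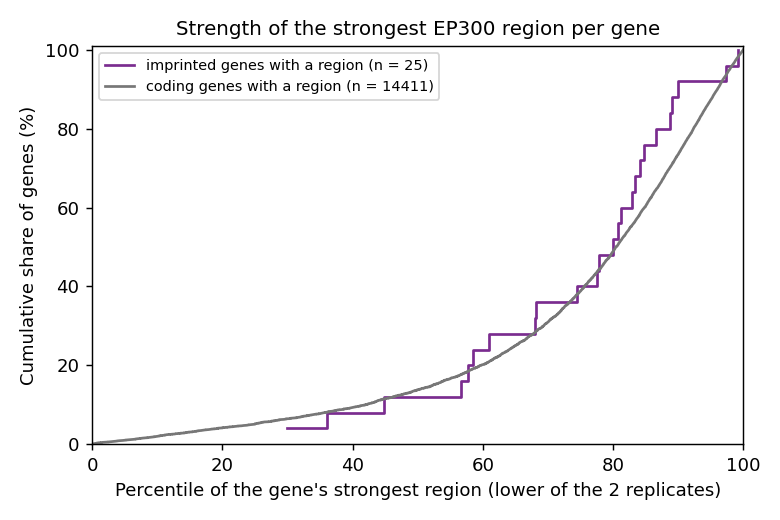
Cumulative share of genes (y axis, percent) by the percentile of their strongest region (x axis), for the 25 imprinted genes and the 14411 coding genes with a region. The curves lie close to each other around their medians of 80.0 and 80.5.

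The highest values among the imprinted genes lay at upstream starts of PLAGL1 and MEST, away from the starts that carry their imprints. PLAGL1, a zinc finger transcription factor gene whose overexpression is linked to transient neonatal diabetes, and MEST, which encodes a protein of the alpha/beta hydrolase fold, each have a start that carries a maternal germline imprint and an upstream start that does not. Their sequences are shown because the upstream starts had the highest EP300 of the list. They are RefSeq promoter windows of GRCh38.p14, 250 bases before to 50 after the start on the gene's strand, with capitals for TGCCGC or its reverse complement GCGGCA.
PLAGL1 imprinted start, chr6:144008210-144008509, minus strand: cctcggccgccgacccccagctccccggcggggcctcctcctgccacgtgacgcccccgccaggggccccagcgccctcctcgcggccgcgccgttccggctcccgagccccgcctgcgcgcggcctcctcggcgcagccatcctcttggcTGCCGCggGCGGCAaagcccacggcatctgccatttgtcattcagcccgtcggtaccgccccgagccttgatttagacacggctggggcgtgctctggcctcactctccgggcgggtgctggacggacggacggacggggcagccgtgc
PLAGL1 upstream start, chr6:144064550-144064849, minus strand: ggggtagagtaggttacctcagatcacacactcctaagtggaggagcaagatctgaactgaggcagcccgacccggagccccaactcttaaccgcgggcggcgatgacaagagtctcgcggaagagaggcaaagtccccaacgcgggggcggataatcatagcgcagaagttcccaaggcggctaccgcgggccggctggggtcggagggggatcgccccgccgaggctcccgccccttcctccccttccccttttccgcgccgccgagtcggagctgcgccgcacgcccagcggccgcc
MEST imprinted start, chr7:130491079-130491378, plus strand: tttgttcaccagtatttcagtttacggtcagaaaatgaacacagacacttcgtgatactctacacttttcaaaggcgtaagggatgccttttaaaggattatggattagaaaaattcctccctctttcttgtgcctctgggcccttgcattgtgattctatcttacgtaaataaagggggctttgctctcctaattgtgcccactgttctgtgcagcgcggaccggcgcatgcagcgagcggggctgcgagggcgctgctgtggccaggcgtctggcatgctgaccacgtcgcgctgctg
MEST upstream start, chr7:130485925-130486224, plus strand: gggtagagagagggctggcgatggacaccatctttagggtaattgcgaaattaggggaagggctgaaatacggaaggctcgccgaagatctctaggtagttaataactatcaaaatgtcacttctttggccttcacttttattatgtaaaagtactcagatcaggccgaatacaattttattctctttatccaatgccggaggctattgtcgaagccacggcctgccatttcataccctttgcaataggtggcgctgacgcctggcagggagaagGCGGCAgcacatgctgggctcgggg
The imprinted window of PLAGL1 holds 2 matches and its upstream window 0, whereas the imprinted window of MEST shown here holds 0 and its upstream window 1. MEST has 2 further starts just downstream of the imprinted one, at 130492058 and 130492085, in the same EP300 region. Their windows hold 2 and 3 matches, so the 0 applies to the printed window alone.

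At PLAGL1 no summit of either replicate lay within 1 kb of the imprinted start, whereas the upstream start, 56.3 kb away, was enriched 21.5-fold in replicate 1 and 26.4-fold in replicate 2. That upstream region (chromosome 6, 144063673 to 144065074) was the strongest of the list, at percentile 99.2, with -log10 q-values of 104 and 136. It was also the only region assigned to the gene. At MEST the imprinted start had 7.97 and 7.08, and the upstream start, 5.15 kb away, had 16.8 and 20.001. Both replicates were thus lower at the imprinted start of MEST, at 0.473 and 0.354 times the value of the upstream start.

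The same comparison could be made at the other listed imprinted starts that are not the 5′-most start of their gene, those of L3MBTL1, GRB10, INPP5F, GNAS and SNRPN. L3MBTL1, a chromatin protein that reads methylated histone lysines, had 3.22 and 4.97 at the imprinted start and 13.7 and 11.2 at the 5′-most start, 6.74 kb upstream. GRB10, an adaptor that dampens insulin receptor signalling, had 3.55 and 3.17 at the imprinted start and 8.41 and 9.00 at the 5′-most start, 10.6 kb upstream. INPP5F, a phosphoinositide phosphatase, had 4.73 and 8.69 at the imprinted start and 7.57 and 11.4 at the 5′-most start, 92.8 kb upstream. At these 3 genes both replicates were lower at the imprinted start. GNAS went both ways: its 5′-most start had 6.59 and 8.06, its imprinted XLAS start was higher with 7.67 and 10.6, and its imprinted A/B start was lower with 3.56 and 3.40. SNRPN was mixed, with 4.06 and 3.02 at the imprinted start. Its 5′-most start with a promoter window had 4.88 in replicate 1 and no summit in replicate 2. The RefSeq 5′ end of SNRPN lies further upstream, at 24823637, and the nearest peaks were 5.62 and 3.49 kb from it. Set against that end, which had no summit within 1 kb, the imprinted start was the higher in both replicates. With SNRPN compared at its promoter window, 6 of 8 internal imprinted starts were lower than the 5′-most start in both replicates. Of the others, 1 was higher in both and 1, SNRPN, was mixed. The 5′-most start was also the higher in both replicates at 65.8% of the 1501 coding genes with a summit at it or at their first start over 3 kb downstream. The pairs were chosen after values at these genes were known, and no test was made of the difference.

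From general knowledge of these loci, not from a methylation measurement, 14 start sites of the listed genes were taken to carry a maternal germline imprint, with PEG3 and ZIM2, and SGCE and PEG10, each counted as 1 site. A summit lay within 1 kb in both replicates at 12 of the 14 (85.7%), against 70.1% of coding 5′ ends, and at PLAGL1 and DIRAS3 in neither. Replicate 1 had a median of 4.50 and replicate 2 one of 5.52 across the 12 sites, in fold enrichment, against 8.55 and 8.69 at the 13217 coding 5′ ends with a summit in both. Of the 12, 10 (83.3%) lay below the coding median in both replicates, against 43.3% of the coding ends, and 7 (58.3%) lay below the lower quartile in both, against 19.3%. The exceptions were the shared start of SGCE and PEG10, above the median in both replicates with 8.99 and 11.3, and the XLAS start of GNAS, with 7.67 and 10.6, above it in replicate 2. The sites and the coding ends are unlike in kind, since 7 of the 12 are internal starts and KCNQ1OT1 is a lncRNA start. Of the 7 internal sites, 6 lay below that median in both replicates and 4 below the lower quartile, against 52.7% and 30.4% of the 759 coding genes with a summit in both at their first start over 3 kb downstream. Of the 5 sites at the 5′ end of their gene, 4 lay below the median and 3 below the lower quartile. Among the low ones were 4.06 and 3.02 at the SNRPN start, 3.55 and 3.17 at GRB10, and 3.56 and 3.40 at the A/B start of GNAS. These sites were listed after values at some of them were known.

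**Figure D3:**
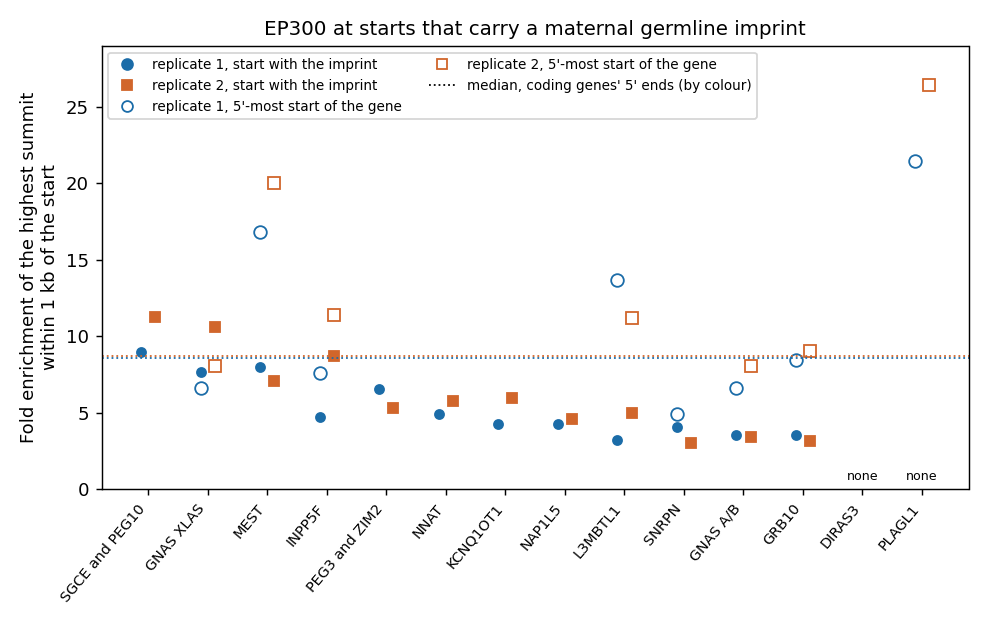
Highest EP300 fold enrichment (authors' value, y axis) within 1 kb of each of 14 starts that carry a maternal germline imprint (filled) and of the 5′-most start of the same gene where that is another start (open, 8 sites), with circles for replicate 1 and squares for replicate 2. For SNRPN the open marker is at the 5′-most start with a promoter window, not at the RefSeq 5′ end. The filled markers lie mostly below the dotted medians of coding genes' 5′ ends, 8.55 and 8.69, and PLAGL1 and DIRAS3 have no summit at the imprinted start.

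The starts of SNRPN, DIRAS3 and H19 are shown as starts with little or no EP300 within 1 kb. SNRPN had a weak summit at its imprinted start, and DIRAS3 and H19 had none. Upstream of the SNRPN start and outside that 1 kb, replicate 1 alone had a peak of 5.93 (chromosome 15, 24953201 to 24953787). The windows are printed as above, from the same RefSeq build.
SNRPN imprinted start, chr15:24954737-24955036, plus strand: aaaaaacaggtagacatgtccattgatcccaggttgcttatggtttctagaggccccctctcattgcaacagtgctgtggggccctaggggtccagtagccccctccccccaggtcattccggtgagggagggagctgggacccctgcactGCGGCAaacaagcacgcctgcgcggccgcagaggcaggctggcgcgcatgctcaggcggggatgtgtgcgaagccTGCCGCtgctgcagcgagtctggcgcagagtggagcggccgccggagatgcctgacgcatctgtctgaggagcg
DIRAS3 start, chr1:68050578-68050877, minus strand: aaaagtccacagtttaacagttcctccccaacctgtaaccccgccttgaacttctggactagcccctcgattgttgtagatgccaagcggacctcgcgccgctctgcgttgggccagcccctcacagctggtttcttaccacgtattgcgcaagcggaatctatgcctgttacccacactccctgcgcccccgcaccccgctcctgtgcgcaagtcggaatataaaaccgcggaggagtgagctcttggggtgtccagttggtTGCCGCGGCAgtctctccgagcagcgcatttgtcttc
H19 start, chr11:2001217-2001516, minus strand: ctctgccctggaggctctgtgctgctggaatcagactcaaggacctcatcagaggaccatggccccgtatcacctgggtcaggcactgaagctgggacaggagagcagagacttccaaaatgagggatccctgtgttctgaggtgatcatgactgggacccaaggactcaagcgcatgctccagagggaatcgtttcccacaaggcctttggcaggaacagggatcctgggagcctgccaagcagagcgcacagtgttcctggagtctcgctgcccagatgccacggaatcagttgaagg
The SNRPN window holds 2 matches, 1 on each strand. The 2 matches of DIRAS3 overlap on opposite strands, and H19 holds 0. The ratio of observed to expected CpG dinucleotides was 0.583 in the SNRPN window, 0.846 in that of DIRAS3 and 0.242 in that of H19, against a median of 0.576 over the 5′-most windows of 27057 genes.

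The 11p15 cluster, linked to Beckwith-Wiedemann syndrome, had regions at 6 of its 7 genes. KCNQ1OT1, the paternally expressed antisense RNA that silences the neighbouring genes in cis, had 4.22 and 5.97 at its start, which carries the imprint. A stronger region, at 8.10 and 11.05, lay 2.66 kb upstream of it (chromosome 11, 2702651 to 2705504). CDKN1C, PHLDA2 and SLC22A18, which are expressed from the maternal copy, had higher values than the KCNQ1OT1 start at or near their own starts. KCNQ1, expressed from the maternal copy as well, had lower ones at its start, 3.44 and 3.97. The region upstream of KCNQ1OT1 was nearer to the values of these 3 genes, and above CDKN1C in replicate 2. CDKN1C, which encodes the cyclin-dependent kinase inhibitor p57, had 11.2 and 9.44, and PHLDA2, a pleckstrin homology domain gene that limits placental growth, had 8.28 and 11.5. SLC22A18, an organic cation transporter gene, had 10.8 and 11.95, with the summit of replicate 1 lying 2.8 kb downstream of its RefSeq 5′ end.

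KCNQ1, which encodes a voltage-gated potassium channel subunit, had the most regions of the members. At its 5′ end the values were 3.44 and 3.97, and its strongest region was intronic (chromosome 11, 2532911 to 2537397), with 12.3 and 11.6, percentile 89.9. Over the 404 kb of the gene lay 39 reproducible regions, or 9.65 per 100 kb, against a median of 0.611 among the 1383 coding genes of 200 kb or more. KCNQ1 ranked 11th of these by density, and 0.795% were at least as dense. Shorter members reached similar densities, as GNAS did with 7 regions over 71.4 kb (9.80 per 100 kb) and SNRPN with 13 over 155 kb (8.38 per 100 kb). The authors assigned 13 of the 39 to KCNQ1, 7 to KCNQ1OT1, 7 to KCNQ1-AS1 and 4 each to COX6CP18, ENSG00000275666 and ENSG00000276015. Most were weak, with a median percentile of 28.9. The strongest region of the domain, at 14.98 and 13.5 and percentile 93.6, was assigned to KCNQ1-AS1 and lay between KCNQ1 and CDKN1C.

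**Figure D4:**
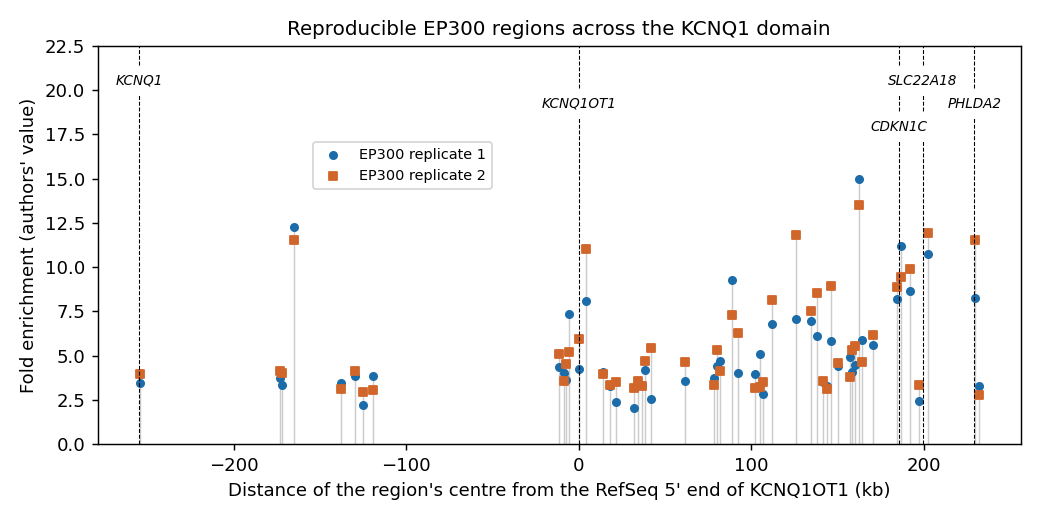
Fold enrichment (authors' value, y axis) of each reproducible EP300 region across the KCNQ1 domain, by the distance of its centre from the RefSeq 5′ end of KCNQ1OT1 in kb, with dashed lines at the 5′ ends of member genes. Regions are sparse in the left part, on the transcribed side of the KCNQ1OT1 start, where the intronic region at 12.3 and 11.6 stands above its neighbours, and dense to its right up to PHLDA2.

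IGF2 and H19 share the other control region of 11p15, whose imprint is paternal and lies away from their promoters. IGF2, the fetal growth factor, had 3 regions, the strongest at 5.07 and 5.59, all within 3 kb of a start in the authors' annotation but none within 3 kb of its RefSeq 5′ end. H19, a maternally expressed lncRNA, had no peak in either list, and the nearest reproducible region lay 63.9 kb from its 5′ end. In replicate 2 alone a peak of 4.51, assigned to MRPL23-AS1, lay 12.4 kb away.

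The 14q32 cluster, whose imprint is paternal as well, had regions at 2 of its 4 genes. DLK1, a Notch ligand family member expressed from the paternal copy, had 6.03 and 7.12 at its start and 2 regions upstream, the stronger at 6.71 and 5.92. MEG3, the maternally expressed lncRNA of the locus, had 3.88 and 4.32 at an internal start and no reproducible region within 3 kb of its RefSeq 5′ end, where replicate 1 alone had a peak of 2.43. MEG3 peaks were poorly shared: 2 of 8 in replicate 1 and 2 of 5 in replicate 2 overlapped the other list. MEG8, a further lncRNA, had 2 peaks in replicate 2 alone, at 2.54 and 4.63. RTL1, a retrotransposon-derived gene needed in the placenta in mice, had no assigned peak, but a region assigned to ENSG00000275134, at 6.07 and 6.50, lay 2.87 kb from its 5′ end. RTL1 and MEG8 overlap on opposite strands, so these peaks cannot be assigned to either by position.

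In the Prader-Willi and Angelman region, 15q11, regions were found at 4 of 5 genes. UBE3A, the ubiquitin ligase gene lost in Angelman syndrome, had 12.02 and 9.06 at its start and 3 weaker regions far upstream. SNRPN, which encodes a splicing protein and carries the imprinting centre, had 8 regions. The strongest of these, at 7.63 and 10.2, lay upstream of the imprinted start (chromosome 15, 24948908 to 24951244), 3.69 kb from a start in the authors' annotation. That imprinted start itself had 4.06 and 3.02. The MAGE family genes of the cluster had weaker strongest regions than UBE3A and SNRPN. MAGEL2 had 4.96 and 7.56 at its start, and NDN, which encodes necdin, had 6.63 and 3.64 in a region 26.7 kb upstream. A further peak at the NDN start, 2.31, was in replicate 1 alone. MKRN3, a zinc finger gene known to restrain the onset of puberty, had no peak, and its nearest region, that of MAGEL2, lay 81.4 kb away.

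On chromosome 7q, MEST had the second highest region of the list. SGCE, which encodes epsilon-sarcoglycan, and PEG10, a retrotransposon-derived gene, are transcribed away from each other from 1 imprinted promoter. The region there, at 8.99 and 11.3, was assigned to SGCE. PEG10 itself was given a peak of 2.89 in replicate 1 alone.

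All 4 genes on 20q had promoter regions. L3MBTL1 was the strongest of them, as above. GNAS, which encodes the stimulatory G protein alpha subunit from several starts, had 4 promoter regions, and the region that holds its highest percentile (chromosome 20, 58888313 to 58892846) reached 9.43 and 10.2 at a summit 52.2 kb from the RefSeq 5′ end. The A/B start inside that region had only 3.56 and 3.40 within 1 kb. NNAT, the neuronatin gene, had 4.90 and 5.74 at its imprinted start. BLCAP, within whose intron NNAT lies, had 6.99 and 9.58 at its own start, higher than NNAT in both replicates.

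At 19q13, PEG3, a zinc finger gene, had 6.54 and 5.31 at the start it shares with ZIM2. ZIM2, another zinc finger gene, was assigned no peak of its own. Counted through shared promoters, ZIM2 and PEG10 would bring the members with a promoter region to 26.

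Of the single imprinted loci, ZDBF2, a DBF-type zinc finger gene, had 10.9 and 10.3 at its start. IGF2R, the receptor that clears IGF2, had 6.07 and 7.10. GRB10 had 6 regions, of which 4 lay away from its promoters, the highest of these by percentile at 4.90 and 4.17. NAP1L5, a nucleosome assembly protein family gene within an intron of HERC3, had 4.27 and 4.60 at its imprinted start. DIRAS3, a Ras family GTPase gene known as a tumour suppressor, had no assigned peak and no reproducible region within 181 kb. A peak of 3.25, assigned to ARL5AP3, lay 3.16 kb from its 5′ end in replicate 2 alone.

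Grouped by the kind of imprint, 12 of the 15 genes with a maternal imprint at a promoter had a region. So did 3 of the 6 genes governed by a distant paternal imprint and 10 of the 11 other members. These counts follow the authors' assignment. ZIM2 and PEG10, of the 15, count as without a region, although one at their 5′ end was assigned to PEG3 and to SGCE. RTL1, of the 6, also counts as without one, although a region within 3 kb of its 5′ end was assigned to another gene. The 11 other members are not free of imprint control. CDKN1C, PHLDA2 and SLC22A18 are neighbours of KCNQ1OT1, and NDN, MAGEL2, MKRN3 and UBE3A lie in the cluster of the SNRPN imprinting centre. The classes differ in gene type: 3 of the 6 are lncRNA genes, of which 1 had a region, and of the 15 only KCNQ1OT1 is, while the 11 are all coding. Over all genes, 72.1% of coding and 10.2% of lncRNA genes had one. Among coding members alone the counts were 11 of 14, 2 of 3 and 10 of 11. The medians of their strongest regions were at percentile 80.6, 58.4 and 81.8. The first of these includes regions at starts without the imprint, as at PLAGL1 and MEST. By expressed copy, 6 of 8 maternally expressed genes had a region, with a median of 83.6, and 14 of 19 paternally expressed genes, with a median of 73.0. These classes differ in gene type as well. H19, MEG3 and MEG8 of the maternally expressed genes are lncRNA genes, and H19 and MEG8 are those without a region. Of the paternally expressed genes only KCNQ1OT1 is a lncRNA gene. ZIM2, PEG10 and RTL1 are paternally expressed and again count as without a region. All 5 genes left out of both classes, GNAS, BLCAP, GRB10, IGF2R and INPP5F, had one, with a median of 77.6.

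The members' peaks were shared between the replicates about as often as all peaks. In replicate 1, 77 of 103 member peaks (74.8%, Wilson 95% interval 65.6 to 82.2) overlapped a peak of replicate 2, against 74.5% of all 65276. In replicate 2, 76 of 102 (74.5%, 65.3 to 82.0) did so, against 73.9% of all 64896. The intervals cover counting error only. Over the 72 member regions the fold enrichments of the replicates had a Spearman correlation of 0.84, given as a description, since neighbouring regions and possibly the input are shared. The summits lay a median of 73.5 bp apart, and in 42 regions within 100 bp. The correlation and the summit distances were not computed over all regions, so they describe the members only.

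Member peaks seen in 1 replicate alone were mostly weaker than shared ones. There were 26 in each replicate, and their median and highest fold enrichments were 3.46 and 5.93 in replicate 1 and 3.25 and 4.68 in replicate 2. Shared member peaks had medians of 4.90 and 5.32. The median of all peaks was 4.51 in both lists, so some unshared member peaks lay above it. Unshared peaks over all genes were not summarised. Of the 52 unshared member peaks, 17 were assigned to KCNQ1 or KCNQ1OT1, 11 to MEG3 or MEG8 and 8 to SNRPN. These are 32.7%, 21.2% and 15.4% of the unshared peaks, beside 30.2%, 7.32% and 12.2% of all 205 member peaks. KCNQ1 and KCNQ1OT1 also held 19 of the 33 intron peaks of members in replicate 1 and 29 of 43 in replicate 2. Introns held 32.04% of member peaks in replicate 1 and 42.2% in replicate 2, against 22.3% of all peaks in both, and 18.4% and 20.9% once these 2 genes were left out. Promoters held 58.3% and 49.0%, against 47.9% and 48.0% of all peaks, and 69.7% and 67.2% without them.

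A list of 58 other imprinted genes and neighbours in the same clusters gave a similar share of coding genes with a promoter region. These were 34 of its 44 coding genes (77.3%), against 68.7% of all coding genes. A reproducible region was assigned to 42 of the 58, a mixed list of coding and non-coding genes. Over all genes, 72.1% of coding and 10.2% of lncRNA genes had one. TFPI2, a serine protease inhibitor gene next to the PEG10 domain, had 23.7 and 28.2 at its promoter, percentile 99.6. NAP1L4, CASD1 and PPP1R9A followed at percentiles 96.1, 95.6 and 95.5. The most regions were assigned to ATP10A and TP73, with 13 each, and BEGAIN, with 11. The 16 without one were IGF2-AS, SNHG14, PWAR1, USP29, ZIM3, MIMT1, ASB4, PON3, MESTIT1, CPA4, MCTS2, SGK2, HYMAI, AIRN, WT1 and PPIEL. MESTIT1 and WT1 do have a region at most 3 kb from their RefSeq 5′ end, assigned to another gene.

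Genes known to set, keep or read imprints nearly all had EP300 at a promoter, 27 of 28 (96.4%), against 68.7% of all coding genes, and NLRP5, a maternal-effect gene of the egg, had none. DNMT3A, a de novo DNA methyltransferase gene, had 19.4 and 20.6, and DNMT1, the maintenance methyltransferase gene, had 15.7 and 22.1. SMCHD1, a chromatin silencing factor, and TET1, an enzyme that oxidises methylcytosine, followed at percentiles 93.3 and 90.02. DNMT3A also had the most regions, 9, and DPPA3, DNMT3B and TET3 had 4 each.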

How the data were processed

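EP300 ChIP-seq peaks of H9 cells in 2 replicates were analysed, and 1 input sample has no table here. The submitters' processing notes name fastp 0.19.11 and the build GRCh38, and the names of the deposited tables say that ChIPseeker annotated the peaks. Aligner, caller, calling threshold and duplicate handling were not given in the sources used here. Per the file headers, each deposited row is 1 summit with a signal value, the authors' fold enrichment, which is a ratio, as well as 2 columns of significance, the -log10 q-value and the -log10 p-value. Peaks were called per sample. The tables hold no read counts, so read depth, and what it does to the number of peaks, is unknown.

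Rows with equal intervals became 1 peak, represented by its highest summit. Chromosomes 1 to 22 and X were used. Peaks of both replicates that overlapped by at least 1 bp were joined into reproducible regions, and each region was counted for every gene its peaks were assigned to. Values at a start are the highest summit within 1 kb. RefSeq promoter windows of 300 bases matched 20 of the 32 members, SLC22A18 under its current symbol. Strand came from these windows, otherwise from the authors' annotation. ZIM2 took the strand of PEG3. The motif TGCCGC and the CTCF core motif were searched on both strands.

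With 1 group of 2 samples, no test between groups was possible, and members are set beside all genes or peaks. The joining of equal intervals and the overlap of peaks were checked on simulated data, and the assignment to genes was not. Members and lists were chosen with earlier results of these data known. All 32 members are named, and of the other lists the 4 genes with the highest promoter percentile, the 3 with most regions and those without a region, ties included. Python 3.11.15, pandas 2.3.3, numpy 2.4.6, statsmodels 0.14.6 and matplotlib 3.10.9 were used. Alternatives were the overlap rule, a fold enrichment of at least 5, a -log10 q-value of at least 5, the promoter window, the handling of joined summits and leaving out a replicate.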

Additional observations from a re-analysis of the deposited data

How the results depend on the processing

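The number of members with a region ranged from 20 to 26 over all settings and that with a promoter region from 19 to 26. A reciprocal overlap of 50% lowered the shared member peaks to 60.2% in replicate 1 and 60.8% in replicate 2. A fold enrichment of at least 5 left 33 regions, with 86.8% and 84.6% of peaks shared, and removed MAGEL2, MEG3, NAP1L5, NDN and NNAT. A -log10 q-value of at least 5 left 45 regions, with 85.2% of replicate 2 peaks shared, and removed MEG3 and NDN. Without one or the other replicate, the peaks of the remaining list numbered 102 to 103, the members with a peak 26, those with a promoter peak 25 to 26, and the median percentile of the strongest peak 78.9 to 84.3. The other settings moved no result beyond its spread or 1.5 times. The internal imprinted starts lower than the 5′-most start were 6 of 8 with summits within 500 bp, where INPP5F had none at its imprinted start, and 6 to 7 in either replicate alone. Within 500 bp the XLAS start of GNAS was no longer higher in both replicates. It had no summit in replicate 1 and 9.28 in replicate 2, against 6.59 and 4.19 at the 5′-most start. SNRPN was again compared at its promoter window, whose start had no summit within 500 bp in either replicate. These start comparisons and the counting of ZIM2 and PEG10 through shared promoters were added after seeing the data. No paired analysis was possible because the samples form 1 group with no second condition. Depth is unknown, so a missing peak means only that none passed the authors' threshold.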

Other observations

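Over the RefSeq windows of the imprinted genes, TGCCGC was found in 21 of 50 start windows (42%), against 16.7% of the 34789 windows of all genes. Taken as 1 window a gene, it was in 10 of 20 members (50%), against 16.6% of 27057 genes. The members' 5′-most windows had a median ratio of observed to expected CpG of 0.740, against 0.576 over all genes, and the motif itself holds a CpG. The CTCF core motif, on either strand, was in 0 of 50 member windows, against 0.0661% of all windows. At so low a share a count of 0 was nearly certain beforehand, so it says nothing about CTCF at these genes. The windows cover 300 bases at a start, so control regions away from a start were not searched, and 12 members, among them KCNQ1OT1, PEG3 and PEG10, have no window in the table used.

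In 45 of the 72 member regions replicate 2 had the higher fold enrichment, a count that was not made over all regions. The ratio of replicate 2 to replicate 1 had a median of 1.10 over the member regions, against 1.02 over all regions, and ranged from 0.440 at a region of SNRPN to 1.84 at INPP5F.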
